A study of Homo sapiens with 6 samples.

Results

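The miR-200 family, miR-205 and miR-203 are miRNAs typical of epithelial cells, and they were followed here in MDA-MB-231 cells that express RARαS77A. Their 10 rows were taken by name from a table of 1582 miRNAs. They comprise both arms of miR-200a and of miR-200b, miR-200c-3p, miR-141-3p, miR-429, miR-205-5p, miR-203a-3p and miR-203b-5p. MDA-MB-231 is an established human line of triple-negative breast cancer (TNBC) with a mesenchymal appearance. Small RNA was sequenced from 3 replicates of non-transfected MDA-MB-231 cells, the control, and from 3 replicates of MDA-MB-231 cells that had received RARαS77A, a form of retinoic acid receptor α that cannot be phosphorylated at its main CAK site. The submitters describe the delivery as lentiviral. The control received no empty vector, so that effects of delivery and of the mutant receptor cannot be told apart. No source used here says that the replicates were separate cultures, and p-values then measure only the spread between these libraries, which may be technical. No drug, dose or time is given for either group.

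In epithelial cells, the miR-200 family binds the mRNAs of ZEB1 and ZEB2, transcription factors that silence E-cadherin and drive epithelial-mesenchymal transition (EMT). ZEB1 and ZEB2 in turn repress the genes of the miR-200 family, so that each side holds the other down. miR-205 also targets ZEB1 and ZEB2, and miR-203 is best known from skin, where it limits the stem cell factor p63. Cells of mesenchymal type such as MDA-MB-231 are known for low levels of these miRNAs.

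The mature sequences, taken from RefSeq (GRCh38.p14) for all 10 rows, are shown because they define which members share a target set and which members can be told apart by their reads. Capitals mark the seed, bases 2 to 8 from the 5′ end, which sets most of a miRNA's target choice.
hsa-miR-200b-3p: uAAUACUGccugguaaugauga
hsa-miR-200c-3p: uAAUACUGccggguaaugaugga
hsa-miR-429: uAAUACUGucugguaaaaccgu
hsa-miR-200a-3p: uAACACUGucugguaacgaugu
hsa-miR-141-3p: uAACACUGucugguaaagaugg
hsa-miR-200a-5p: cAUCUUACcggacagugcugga
hsa-miR-200b-5p: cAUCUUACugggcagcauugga
hsa-miR-205-5p: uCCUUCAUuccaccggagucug
hsa-miR-203a-3p: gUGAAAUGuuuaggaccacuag
hsa-miR-203b-5p: uAGUGGUCcuaaacauuucaca

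miR-200b-3p, miR-200c-3p and miR-429 share the seed AAUACUG, whereas miR-200a-3p and miR-141-3p share AACACUG. The 5p arms of miR-200a and miR-200b share a further seed, AUCUUAC. Within a seed group the sequences are close. Counted from the 5′ end, with the base of the first-named miRNA first, miR-200b-3p differs from miR-200c-3p over 22 bases only by U11G and A22G, and miR-200a-3p from miR-141-3p only by C17A and U22G. The sources used here do not describe how mismatches and reads with several matches were handled, so that a small exchange of reads between these pairs was not testable.

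The miR-200 family comes from 2 gene clusters. In GENCODE 29 (GRCh38), MIR200B lies on the plus strand of chromosome 1 from 1167104 to 1167198, MIR200A from 1167863 to 1167952 and MIR429 from 1169005 to 1169087, and none of them overlaps another annotated gene. MIR200C, on chromosome 12 from 6963699 to 6963766, and MIR141, from 6964097 to 6964191, lie 330 bases apart on the plus strand and are intronic to MIR200CHG, a lincRNA gene. MIR205, on chromosome 1 from 209432133 to 209432242, overlaps an exon of MIR205HG. MIR203A (chromosome 14, 104117405 to 104117514, plus strand) and MIR203B (104117418 to 104117503, minus strand) lie on opposite strands of the same DNA. The sources used here do not name the build used by the authors.

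Mature miR-203a-3p and miR-203b-5p are reverse complements of each other over 21 bases. The table lists the same count for both in 6 of 6 libraries, and the same count for their other arms, miR-203a-5p and miR-203b-3p, in 6 of 6 as well. The sources used here do not describe the handling of strand. The rows for miR-203a-3p and miR-203b-5p therefore hold 1 measurement, which cannot be assigned to either strand, and are called miR-203 from here on.

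The libraries held between 9019266 and 11338580 counts. For a miRNA without reads the limit was set at 3 counts, between 0.265 and 0.333 CPM (counts per 1000000 counts of the library). Several libraries stand apart for miRNAs of other cell types. Over the 10 listed miRNAs of pluripotent stem cells, which include the miR-302 family, all of them over the floor in at least 1 library, the summed level was 0.160 and 0.0680 CPM in control replicates 1 and 2, scaled by TMM as defined below. It was 445.8 CPM in control replicate 3 and between 443.6 and 459.7 CPM in the RARαS77A libraries. In control replicate 1, the 5 listed muscle miRNAs, 4 of them over the floor, summed to 82.2 CPM, compared with 5.51 to 8.57 CPM elsewhere. Of this sum, miR-1-3p alone made up 72.0 CPM. miR-499a-5p, also listed and over the floor, was not raised there, at 2.89 CPM compared with 2.56 to 3.69 CPM elsewhere. The liver, endocrine and blood lists are described together with miR-203.

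All 10 rows held reads, at low counts. The most abundant member, miR-200b-3p, ranked between 156 and 169 among the 1582 miRNAs of a library, and for each of its reads the libraries held between 9679 and 11944 reads of miR-21-5p, the most abundant miRNA. The 7 rows of the miR-200 family together made up 0.0110% to 0.0133% of the counts in control libraries and 0.00941% to 0.0103% in RARαS77A libraries. The 95% Wilson interval of the lowest control share, 0.0104% to 0.0116%, overlaps that of the highest RARαS77A share, 0.00966% to 0.0109%. Such intervals cover counting error only, since the reads carry no stated molecular identifiers. The direction of the family sum turned with the scaling. With TMM scaling, as defined below, the sum was 95.2 to 109.6 CPM in control and 116.0 to 125.5 CPM in RARαS77A libraries, so that the RARαS77A mean was 120.3% of the control mean on this scale and 80.7% on library totals. The groups did not overlap on either scale. Such separation was common among the 506 single miRNAs that passed the filter described below. It was seen for 58.1% of them with TMM, in either direction, and for 48.8% toward lower values on library totals.

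Within the family, the order of the levels was stable. miR-200b-3p exceeded miR-200c-3p, and miR-200c-3p exceeded miR-200a-3p, in 6 of 6 libraries. Mature lengths are 22 or 23 bases, so read counts were compared between members without a length term, although ligation can favour one sequence over another. miR-200a-5p and miR-429 were not separated in the controls, where miR-200a-5p was the higher of the pair in 1 of 3 libraries, but it was the higher in 3 of 3 RARαS77A libraries. At the bottom of the order, miR-141-3p had 4 to 7 counts and miR-200b-5p had 2 to 4 counts per library. In total 8 of the 10 rows were over the floor of 3 counts in every library. The exceptions were miR-205-5p, with 1 count in control replicate 2, and miR-200b-5p.

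**Figure D1:**
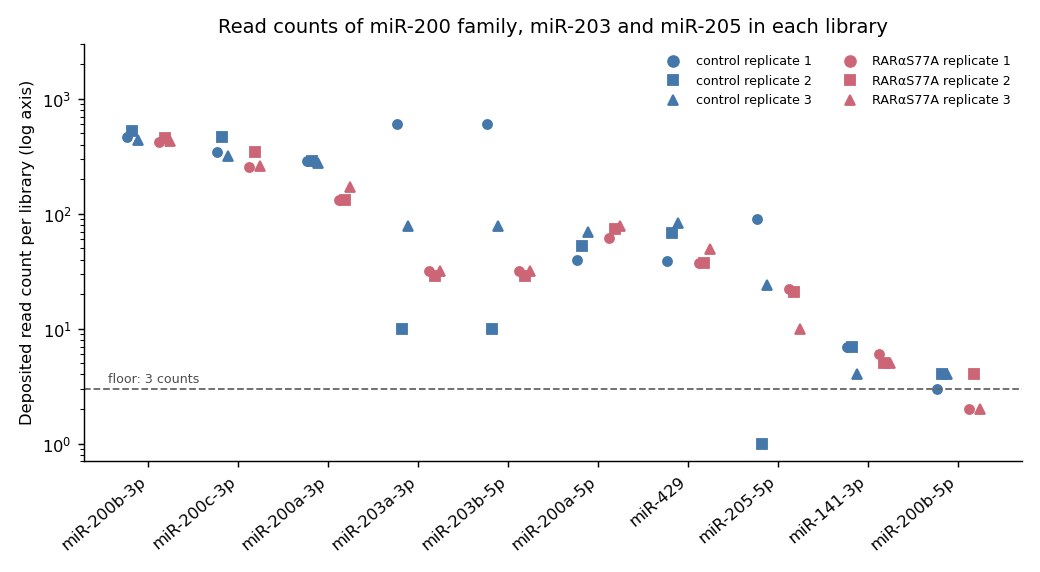
Deposited read count of each of the 10 rows (log axis) in the 3 control libraries (blue) and the 3 RARαS77A libraries (red), with the floor of 3 counts as a dashed line. miR-200b-3p stays between 419 and 522 counts in all 6 libraries, whereas miR-203 ranges from 10 to 605 counts and miR-205-5p from 1 to 90 counts among the controls.

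To ask whether RARαS77A changed the epithelial miRNAs, edgeR's quasi-likelihood test was run on the counts of the 506 miRNAs that passed its expression filter, with p-values adjusted over all of them by the Benjamini-Hochberg method and 0.05 as the limit. Levels are given as CPM scaled by TMM, a factor that allows for a few abundant miRNAs taking up different shares of a library. Of the 10 rows, 8 passed the filter. miR-200b-3p, a main arm that targets ZEB1 and ZEB2, and miR-200a-5p, the minor arm of MIR200A, were higher in RARαS77A cells, and 0 members were lower. The count of lower members was also 0 at an unadjusted p under 0.05, and 0 with DESeq2 and with limma-voom. These counts changed in other fits. On library totals 0 members were called higher (0 at an unadjusted p under 0.05) and 1 lower, miR-200a-3p, beside 51 higher and 213 lower among all 506. Without the expression filter 1 was called higher and 2 lower, beside 117 and 162 of 1582 miRNAs. Without control replicate 2 the members called were also 1 and 2, beside 119 and 93 of 518 miRNAs. In both cases the lower ones were the rows of miR-203a-3p and miR-203b-5p, which hold 1 measurement. The 2 called rows are 25% of the 8, or 28.6% of 7 with miR-203 counted once. The same test called 44.5% of all 506 miRNAs, 23.3% as higher and 21.1% as lower. The TMM factors differed between the groups, with a mean of 1.22 in control and 0.819 in RARαS77A libraries (n = 3 each), so that the direction of small differences rests on the scaling. In bulk RNA, a change in the number of cells that express a miRNA and a change in its level per cell cannot be told apart.

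miR-200b-3p had 465, 522 and 442 counts in the control libraries and 419, 460 and 426 in the RARαS77A libraries. After TMM scaling these became 37.3, 35.5 and 40.4 CPM in control and 53.3, 54.8 and 51.3 CPM in RARαS77A cells. All 3 RARαS77A libraries lay above all controls on this scale, whereas the groups overlapped in counts. The control mean was 37.7 ± 2.48 CPM and the RARαS77A mean 53.1 ± 1.75 CPM (SD, n = 3 each), and miR-200b-3p rose by a log2 fold change of 0.49 ± 0.14 (SE; edgeR, adjusted p = 0.0241). The exact permutation test, two-sided, gave p = 0.1, the smallest that 3 against 3 libraries allow. Without TMM factors the log2 fold change was -0.08 (adjusted p = 0.669, edgeR; 0.00805 to 0.669 over 17 alternatives). The call was also lost without control replicate 1 or 2 or without RARαS77A replicate 1 or 2, at log2 fold changes between 0.43 and 0.50 (adjusted p between 0.0525 and 0.0754, edgeR), but kept without control replicate 3 (0.49, adjusted p = 0.0417). It was lost as well with the replicate number as a block (0.50, adjusted p = 0.0640).

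miR-200c-3p, which shares the seed of miR-200b-3p but comes from chromosome 12, had 346, 462 and 319 counts in control and 254, 343 and 259 in RARαS77A libraries. The scaled levels were 27.8, 31.4 and 29.1 CPM in control and 32.3, 40.8 and 31.2 CPM in RARαS77A cells. The groups overlapped, because control replicate 2 lay above RARαS77A replicate 3. The log2 fold change was 0.24 ± 0.17 (SE; edgeR, adjusted p = 0.284) and -0.34 without TMM factors (adjusted p = 0.179; 0.102 to 0.989 over 17 alternatives). Against an expectation set by library totals, the variance of its counts was 5.93 times the Poisson value in control and 6.44 times in RARαS77A libraries. For miR-200b-3p it was 1.92 and 0.314 times. This index was not computed with TMM factors. On the TMM scale, the control SD was 1.85 CPM for miR-200c-3p (mean 29.4) and 2.48 CPM for miR-200b-3p (mean 37.7). In RARαS77A libraries it was 5.29 CPM (mean 34.8) and 1.75 CPM (mean 53.1).

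miR-429, the third member with the seed AAUACUG, had 39, 68 and 83 counts in control and 37, 37 and 49 in RARαS77A libraries. The control libraries, at 3.13, 4.62 and 7.58 CPM after scaling, spanned the RARαS77A libraries, at 4.71, 4.41 and 5.90 CPM. The log2 fold change of -0.02 ± 0.33 (SE; edgeR, adjusted p = 0.958) changed sign without control replicate 3, the highest of the 6 libraries for miR-429, to 0.31 (adjusted p = 0.413; 0.173 to 0.959 over 17 alternatives), and without RARαS77A replicate 2, to 0.077.

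miR-200a-3p, the main arm of MIR200A, had 287, 285 and 279 counts in control and 132, 131 and 172 in RARαS77A libraries. It was the only one of the 10 rows whose groups did not overlap in counts or in CPM on the library total, a separation toward lower values that was seen for 48.8% of all miRNAs tested on that scale. After TMM scaling, the levels were 23.0, 19.4 and 25.5 CPM in control and 16.8, 15.6 and 20.7 CPM in RARαS77A cells, and the groups overlapped through control replicate 2 and RARαS77A replicate 3. The log2 fold change was -0.35 ± 0.19 (SE; edgeR, adjusted p = 0.173). Without TMM factors it was -0.92, which passed the limit (adjusted p = 0.00726; 0.00726 to 0.604 over 17 alternatives).

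The other arm of the same hairpin, miR-200a-5p, had 40, 52 and 69 counts in control and 62, 74 and 79 in RARαS77A libraries. The scaled levels were 3.21, 3.54 and 6.30 CPM in control and 7.89, 8.81 and 9.51 CPM in RARαS77A cells. No library overlapped between the groups on this scale, and control replicate 3 was the control closest to the RARαS77A libraries. Means were 4.35 ± 1.70 CPM in control and 8.74 ± 0.815 CPM in RARαS77A cells (SD, n = 3 each), and miR-200a-5p rose by a log2 fold change of 1.01 ± 0.28 (SE; edgeR, adjusted p = 0.0223). The two-sided exact permutation p was 0.1, again the lowest that the design allows. Without control replicate 1, which stands apart for muscle miRNAs, the log2 fold change was 0.85 (adjusted p = 0.0396, edgeR). Without control replicate 3 it was 1.31 (adjusted p = 0.00229, edgeR). Control replicate 3 is the only control that shares the stem cell miRNAs with the RARαS77A libraries. In the fit without it, this trait and the groups cannot be told apart. The call was lost without TMM factors (0.44, adjusted p = 0.228) and without any one of the RARαS77A libraries (0.95 to 1.02, adjusted p = 0.0561 to 0.0670). With a batch term that sets control replicate 3 beside the RARαS77A libraries, and so leaves 1 control in the comparison, the log2 fold change was 0.47 (adjusted p = 0.256; 0.00229 to 0.256 over 17 alternatives, edgeR throughout except DESeq2 and limma-voom).

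**Figure D2:**
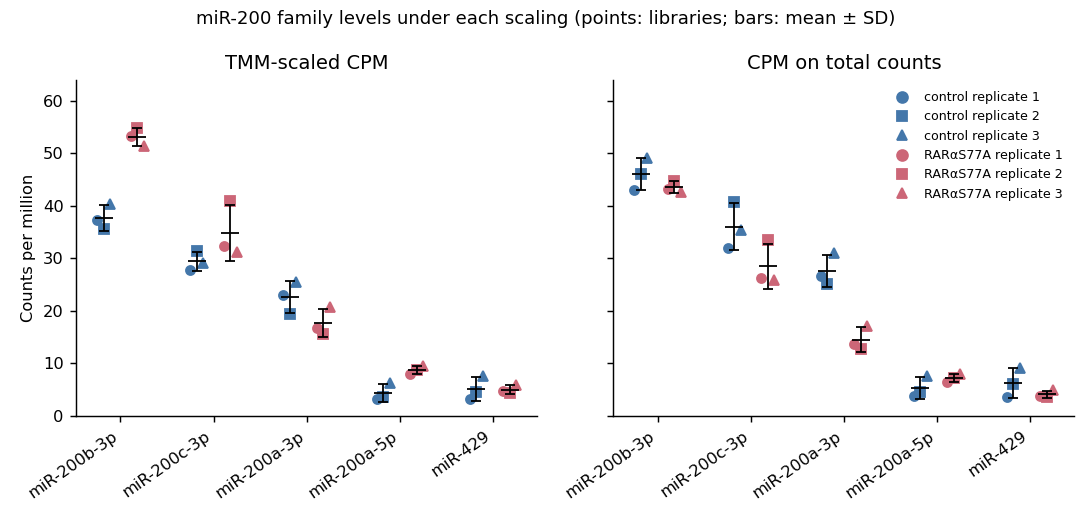
Level of 5 miR-200 family members in each library (points) with mean ± SD (bars, n = 3), as TMM-scaled CPM (left) and as CPM on the library total (right). miR-200b-3p and miR-200a-5p are separated between the groups on the left only, and miR-200a-3p on the right only.

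Counted among the 8 rows that passed the filter, the groups did not overlap in TMM-scaled CPM for 2, miR-200b-3p and miR-200a-5p, compared with 58.1% of all 506 miRNAs. A difference in scaling moves all miRNAs alike. The median log2 fold change of the 506 miRNAs was 0.06 with TMM, -0.51 on library totals and 0.27 with upper quartile factors. Taken relative to that median, miR-200b-3p stood at 0.43 with TMM and at 0.43 on library totals, miR-200a-5p at 0.95 under both, miR-200c-3p at 0.18 and 0.17, and miR-200a-3p at -0.42 and -0.41. By this measure miR-200b-3p lay above 70.4% of all miRNAs tested, miR-200a-5p above 83.4%, miR-200c-3p above 58.7%, miR-429 above 47.0% and miR-200a-3p above 33.2%.

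**Figure D3:**
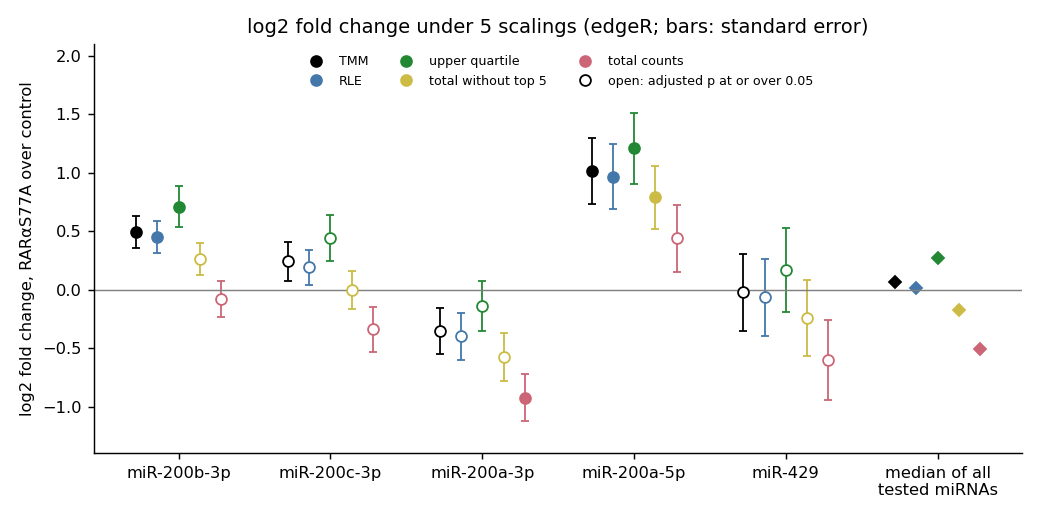
log2 fold change of 5 miR-200 family members (RARαS77A over control, edgeR, bars give the standard error) under 5 scalings, with the median of all 506 miRNAs at the right. Filled points passed an adjusted p of 0.05. The points of each member shift together with the median, and miR-200a-3p stays below miR-200b-3p under each of the 5 scalings.

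Ratios between members within a library do not depend on the scaling, and 7 such ratios were computed after the counts had been seen. For every 100 reads of miR-200a-3p, the control libraries held 13.9, 18.2 and 24.7 reads of miR-200a-5p. The RARαS77A libraries held 47.0, 56.5 and 45.9 reads. The ratio of the arms thus went from 19.0 ± 5.43 to 49.8 ± 5.82 (SD, n = 3 each), a 2.69-fold difference without overlap of the groups (log2 difference 1.43, standard error 0.26). The exact permutation test, two-sided, gave p = 0.1, the smallest possible with 3 against 3, and 0.233 after adjustment over the 7 ratios. The arm ratio is not particular to MIR200A. Among 115 miRNAs with both arms tested, it was higher without overlap for 34.8%, and miR-200a had the 15th largest rise.

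The members of the chromosome 1 cluster also differed from each other. For every 100 reads of miR-200b-3p there were 61.7, 54.6 and 63.1 reads of miR-200a-3p in control and 31.5, 28.5 and 40.4 in RARαS77A libraries. All RARαS77A libraries lay below all controls (59.8 ± 4.57 against 33.5 ± 6.18, SD, n = 3 each), a log2 difference of -0.85 ± 0.16 (SE; two-sided exact permutation p = 0.1, adjusted 0.233). How often ratios of other miRNA pairs separate was not computed, so no background stands beside this ratio. The same holds for the seed share and the ratio of miR-205-5p to miR-203 below. As single miRNAs, 58.1% of the 506 tested were separated in TMM-scaled CPM. The ratios of miR-429 to miR-200b-3p (8.39 to 18.8 per 100 in control, 8.04 to 11.5 in RARαS77A) and of miR-200c-3p to miR-200b-3p (72.2 to 88.5 and 60.6 to 74.6 per 100) overlapped between the groups.

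Grouped by seed, the reads with the AACACUG seed were 25.7%, 21.7% and 25.1% of the 3p reads of the family in the controls and 16.3%, 13.9% and 19.4% in RARαS77A libraries. The highest RARαS77A share had a 95% Wilson interval of 17.0% to 22.1%, which overlaps that of control replicate 2, 19.6% to 24.0%. The mean share was 24.2% ± 2.14 in control and 16.5% ± 2.76 in RARαS77A cells (SD, n = 3 each). Most of the reads with the AACACUG seed, 283 to 294 per control library and 136 to 177 per RARαS77A library, were those of miR-200a-3p described above.

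**Figure D4:**
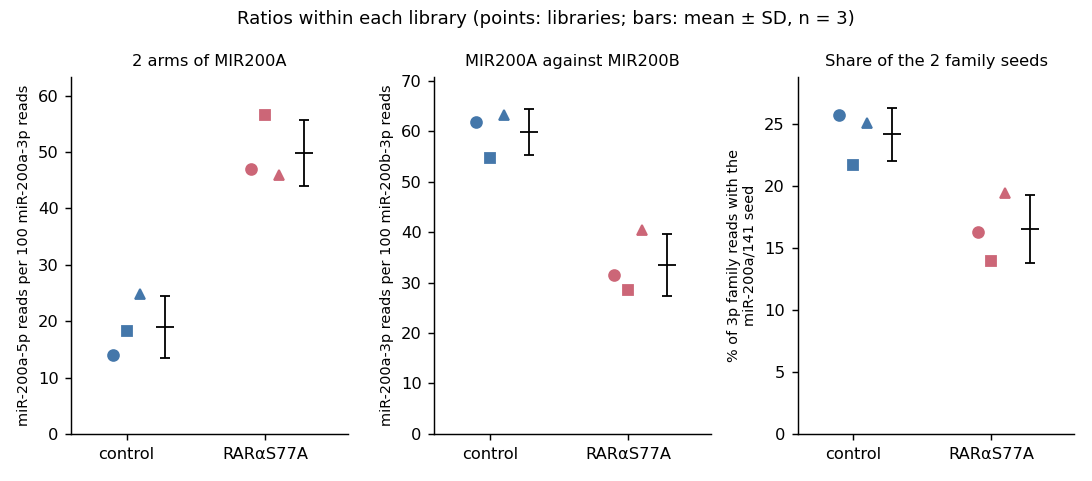
Reads of miR-200a-5p per 100 reads of miR-200a-3p (left), reads of miR-200a-3p per 100 reads of miR-200b-3p (middle) and percent of the family's 3p reads with the AACACUG seed (right), for each library (points) with mean ± SD (bars, n = 3). Control and RARαS77A libraries are separated in each panel.

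On chromosome 12, MIR200C and MIR141 are neighbours in a single host transcript, but their mature 3p arms were recovered unequally. miR-141-3p had 7, 7 and 4 counts in control and 6, 5 and 5 in RARαS77A libraries, which is between 1.25 and 2.36 reads per 100 reads of miR-200c-3p. miR-141-3p did not pass the expression filter. After TMM scaling the RARαS77A libraries (0.595 to 0.763 CPM) lay just above the controls (0.365 to 0.561 CPM), but a count of 7 has a 95% Poisson interval of 2.81 to 14.4, and the counts overlapped between the groups. Tested without a filter, the log2 fold change was 0.28 ± 0.68 (SE; edgeR, adjusted p = 0.823). Its other arm, miR-141-5p, had 0 to 4 counts in control and 2 to 6 in RARαS77A libraries. For miR-200b-5p, also below the filter, a difference was not detectable at 2 to 4 counts per library.

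miR-203 was the least even of the members. It had 605, 10 and 78 counts in the control libraries and 32, 29 and 32 in the RARαS77A libraries, or 48.5, 0.680 and 7.13 CPM and 4.07, 3.45 and 3.85 CPM after TMM scaling. The RARαS77A libraries lay between the controls and close to each other. The variance of the counts was 430.5 times the Poisson expectation, set by library totals, among controls and 0.203 times among RARαS77A libraries. The log2 fold change of -2.30 ± 1.19 (SE; edgeR, adjusted p = 0.153) rested on control replicate 1, and without this library it was 0.04 (adjusted p = 0.972). Without control replicate 2 it was -2.88 and passed the limit (adjusted p = 0.0147; 1.02e-19 to 0.972 over 17 alternatives). The lowest of these p-values came from the fit without an expression filter, at a log2 fold change of -2.51.

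miR-205-5p followed the same order among the controls, with 90, 1 and 24 counts, and had 22, 21 and 10 counts in RARαS77A libraries. The groups overlapped, and the log2 fold change of -0.53 ± 1.02 (SE; edgeR, adjusted p = 0.683) was 1.05 without control replicate 1 (adjusted p = 0.397; 0.0898 to 0.998 over 17 alternatives). miR-203 exceeded miR-205-5p in 6 of 6 libraries. For every 100 reads of miR-203 there were 14.9, 10 and 30.8 reads of miR-205-5p in control and 68.8, 72.4 and 31.2 in RARαS77A libraries. The groups were separated by the gap between control replicate 3 and RARαS77A replicate 3, and the ratio in control replicate 2 rests on 1 read of miR-205-5p. This ratio differed 3.24-fold (log2 difference 1.70 ± 0.62, SE; two-sided exact permutation p = 0.1, adjusted 0.233).

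Other tissue-restricted miRNAs were also uneven between the control libraries. In control replicate 1, the level of miR-203 was 6.81 times that of the next highest library, and that of miR-1-3p, a miRNA of heart and skeletal muscle, was 12.3 times. These rows, and miR-206 and miR-143-3p beside them, were picked after their values were seen. miR-1-3p had 898 counts in control replicate 1 and 28 to 49 elsewhere. miR-206 had 36 counts there and 0 to 2 elsewhere. miR-143-3p, a miRNA of smooth muscle and fibroblasts, had 3511 counts there and 375 to 638 elsewhere. Of the 506 miRNAs tested, only miR-1-3p and the rows of miR-203 were over 5 times the next library in control replicate 1. For the other lists, summed levels were 6.87 to 44.2 CPM in control and 42.4 to 63.5 CPM in RARαS77A libraries for 2 liver miRNAs. They were 120.5 to 218.4 and 248.1 to 318.4 CPM for 6 endocrine and neural miRNAs, and 27.7 to 40.3 CPM over the 6 libraries for 8 blood miRNAs. Most of the endocrine and neural sum was miR-9-5p, at 107.9 to 147.3 CPM in control and 231.5 to 297.4 CPM in RARαS77A libraries. It was called higher (log2 fold change 1.02, adjusted p = 0.00171, edgeR). Whether reads or RNA from other cells contributed to miR-203 and miR-205-5p was not tested. Within the miR-200 family, miR-200b-3p was 1.05 times, miR-200a-3p 1.19 times and miR-200c-3p 0.884 times as high in control replicate 1 as in control replicate 2. The less abundant miR-429 and miR-200a-5p were uneven among the controls in another order. Both were lowest in control replicate 1 (3.13 and 3.21 CPM) and highest in control replicate 3 (7.58 and 6.30 CPM).

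**Figure D5:**
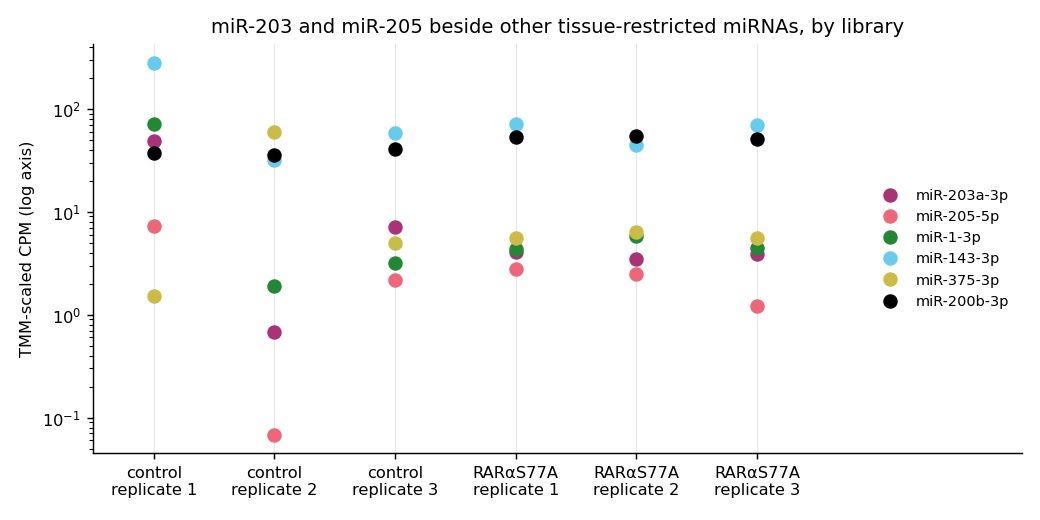
TMM-scaled CPM (log axis) of miR-203 (its miR-203a-3p row), miR-205-5p, miR-1-3p, miR-143-3p, miR-375-3p and miR-200b-3p in each library. miR-203, miR-205-5p, miR-1-3p and miR-143-3p are highest in control replicate 1, miR-375-3p is highest in control replicate 2, and miR-200b-3p lies between 35.5 and 54.8 CPM in all 6 libraries.

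The members were set beside other miRNAs linked to epithelial identity. Of 9 such miRNAs tested, 5 were higher and 1 was lower in RARαS77A cells, beside 23.3% higher and 21.1% lower among all 506. Their median log2 fold change was 0.37, compared with 0.06 over all 506. The miR-183/96/182 cluster, expressed in sensory organs and many carcinomas, was among those that rose. miR-182-5p was at 625.5 ± 50.4 CPM in control and 808.5 ± 40.6 CPM in RARαS77A cells (SD, n = 3 each), and its log2 fold change was 0.37 ± 0.091 (SE; edgeR, adjusted p = 0.0136). miR-183-5p and miR-96-5p had log2 fold changes of 0.58 and 0.65, and miR-192-5p, a miRNA of gut and kidney epithelium, of 0.59. miR-194-5p, often made with miR-192 and named after its value was seen, was the one called lower, with a log2 fold change of -0.76. miR-375-3p and miR-184 had log2 fold changes of -1.91 and -1.73 that did not pass the limit (adjusted p = 0.211 and 0.170, edgeR). With DESeq2, 4 of the 9 were called higher and 2 lower, beside 109 higher and 111 lower among all 506. On library totals (edgeR) 0 of the 9 were higher, also 0 at an unadjusted p under 0.05, and 1 was lower, beside 51 higher and 213 lower among all 506.

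Among 9 tested miRNAs that are described to target EMT transcription factors, 4 were higher and 0 lower by edgeR, beside the same 23.3% and 21.1% of all 506, with a median log2 fold change of 0.43. The lower ones were 1, miR-34a-5p, at an unadjusted p under 0.05 and 0 with DESeq2 and with limma-voom after adjustment. The abundant miR-30a-5p, which targets SNAI1, had 20847 ± 2257 CPM in control and 30714 ± 660.4 CPM in RARαS77A cells (SD, n = 3 each). It rose by a log2 fold change of 0.56 ± 0.12 (SE; edgeR, adjusted p = 0.00696). Its level in control cells, set beside 37.7 CPM for miR-200b-3p, shows the difference in scale. On library totals 0 of the 9 were higher by edgeR (0 unadjusted) and 3 were lower, beside 51 higher and 213 lower among all 506. Of 10 miRNAs associated with mesenchymal or basal-like cells, 1 was higher and 1 lower by edgeR, beside 23.3% and 21.1% of all 506. With DESeq2, 2 of the 10 were higher and 2 lower, beside 109 and 111 of all 506. The median log2 fold change of the 10 was -0.0019 with TMM. miR-100-5p rose by a log2 fold change of 1.01. miR-221-3p, miR-222-3p and miR-146a-5p had log2 fold changes of -0.32, 0.39 and -0.28 that did not pass the limit (adjusted p = 0.0847, 0.0541 and 0.173, edgeR), although miR-221-3p and its cluster partner miR-222-3p were each separated between the groups, in opposite directions. The miRNA called lower by edgeR was miR-125b-5p (-0.79), named after its value was seen. On library totals 0 of these 10 were higher by edgeR (1 unadjusted) and 3 were lower, beside the same 51 and 213 of all 506.

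Among all miRNAs tested, those whose profile across the 6 libraries was closest to miR-200b-3p were miR-224-5p, miR-30d-5p, miR-192-5p, miR-26a-5p and miR-182-5p. Closeness was measured as the root mean square difference of mean-centred log2(CPM + 1), which was 0.066 to 0.080 for these 5 and had a median of 0.383 over all miRNAs. miR-200c-3p ranked 58th by this measure, miR-200a-5p 175th, miR-429 249th and miR-200a-3p 291st. For miR-200c-3p the closest profiles were those of miR-744-5p, miR-335-3p, miR-584-5p, miR-1287-5p and miR-25-3p (0.060 to 0.102). No other member was among the 5 closest to either miRNA.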

How the data were processed

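Libraries of small RNA (3 control, 3 RARαS77A) were prepared with the NEBNext small RNA kit and sequenced on an Illumina platform. In 1 deposited table the authors give, for every miRNA and library, a whole-number read count without normalization and a TPM value. The deposited TPM equals the count per 1000000 counts of the column (largest difference 4.74e-05) and has no length term. The submitters' processing notes name Bowtie. The sources used here do not state its settings, the genome build, the miRNA annotation, or how strand and multiple matches were handled.

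Counts were tested with edgeR 4.0.16 in R 4.3.3 (TMM, filterByExpr with a minimum count of 10, glmQLFit and glmQLFTest, no block) and Benjamini-Hochberg adjustment over 506 miRNAs. Standard errors (SE) were derived as the absolute log2 fold change over √F. Single values were compared with two-sided exact permutation tests (scipy 1.17.1). Alternatives used DESeq2 1.42.0, limma 3.58.1 (voom), other scalings and filters, a replicate block, a batch term and each library left out. The scripts were tested on simulated counts. The members and lists were chosen with earlier results of these data known, and the ratios and the fit without the miR-203b-5p row after the counts had been seen. Named by rule were all members with their other arms, up to 4 of the most abundant miRNAs of each list, miR-21-5p, and the 5 closest profiles of the 2 most abundant members. miR-194-5p, miR-125b-5p, miR-34a-5p and the miRNAs set beside miR-203 in single control libraries are outside this rule and were named after their values were seen. Positions come from GENCODE 29, and sequences from RefSeq. The column mapping left 0 columns unused.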

Additional observations from a re-analysis of the deposited data

How the results depend on the processing

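The 2 members called higher became 0 on library totals (0 also at an unadjusted p under 0.05, edgeR) and 0 with the batch term (0 unadjusted), and 1 with totals that leave out the 5 most abundant miRNAs, without a filter and with the replicate block. Single libraries left out gave 0 to 2. The 0 called lower (edgeR, 0 unadjusted, 0 with DESeq2) became 1 on library totals and 2 without a filter, and 0 to 2 with single libraries left out. Over all miRNAs, the 118 higher became 51 on library totals and 76 with the batch term, and the 107 lower became 213, 55 with the batch term and 162 without a filter. With single libraries left out, 101 to 125 were higher and 92 to 116 lower.

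On library totals, the log2 fold change of miR-200a-3p was -0.92 with a call, that of miR-200a-5p 0.44 without one, and those of miR-200b-3p and miR-200c-3p turned to -0.0807 and -0.34. With totals that leave out the 5 most abundant miRNAs, miR-200b-3p was at 0.26 and miR-200c-3p at -0.0023. miR-200b-3p also lost its call without a filter (0.30), with the replicate block (0.50) and with the batch term (0.40), as did miR-200a-5p with the batch term (0.47). miR-429 was positive with upper quartile factors (0.17), limma-voom (0.0776) and the block (0.0343), and miR-205-5p with limma-voom (1.01) and the block (0.0024). miR-203, in both rows, was called only without a filter (-2.51) and without control replicate 2. The cause of these changes was not tested.

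With single libraries left out, the log2 fold change lay between -0.47 and -0.25 for miR-200a-3p, 0.85 and 1.31 for miR-200a-5p, 0.43 and 0.53 for miR-200b-3p, 0.14 and 0.31 for miR-200c-3p, -0.27 and 0.31 for miR-429, -1.12 and 1.05 for miR-205-5p, and -2.88 and 0.0436 for miR-203. The 8 rows over 3 counts in every library became 5 at 10 counts. The 3 rows without overlap of the groups in TMM-scaled CPM, which include miR-141-3p, became 1 on library totals and 1 in raw counts. Among the 506 miRNAs tested, the groups did not overlap for 58.1% in TMM-scaled CPM, and for 48.8% toward lower values on library totals. No pairing of libraries by replicate number was visible (correlations of deviations 0.0386, 0.0996 and 0.0247). These correlations cannot show whether libraries of the same number were handled together. Low counts limit miR-141-3p and miR-200b-5p, for which only changes far above counting error could be seen.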

Other observations

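Control replicate 2 also stood apart for an epithelial miRNA that is no member. miR-375-3p, known from pancreatic islets and luminal epithelium, had 870 counts there and 19 to 54 in the other 5 libraries, and miR-184 had 153 counts there and 7 to 24 elsewhere. Both were named after their values were seen. Among the 506 miRNAs tested, they were the 2 over 5 times the next highest library in control replicate 2, and 0 were in control replicate 3 or in any RARαS77A library.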
